A study of Mus musculus with 9 samples.

Results

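The liver strain ratio compared gene expression in the livers of SJL/J mice with that in the livers of C57BL/6J mice, which are inbred strains of laboratory mice. It rests on the 3 arrays titled liver among the 9 arrays of the series, and the other 6 arrays measured brain and kidney in the same way, 3 each. Every array carried an SJL/J pool of RNA from 5 males aged 8 weeks, labelled with Alexa Fluor 647, and a C57BL/6J pool of RNA from 5 males of the same age, labelled with Alexa Fluor 555. The labels name no treatment, and 20 ug of pooled RNA entered each labelling reaction. Within a tissue the same pair of pools was hybridised repeatedly without a dye swap, so an SD over 3 arrays and every p-value below describe the spread between arrays and not the spread between mice. A dye effect particular to a probe cannot be told apart from a strain difference. Each value is a log2 ratio that is positive where the SJL/J pool had more of the transcript. Base 2 and this direction were inferred from limma's convention, the dyes and the strain named first in the titles, since the labels state neither.

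Of 23040 spots, 16874 carried a single gene symbol and were the members, 134 carried several symbols and 6032 were unnamed here. Probes whose number is a multiple of 8 (2182 members) and probes in lines of 24 consecutive numbers with a shifted median (331 members) are given apart at the end. The remaining 14409 probes measured 13157 genes, which are called ordinary genes here and carry every named value and every list. A gene measured by several ordinary probes has the mean of those probes, which concerned 836 genes, and 1939 further genes were measured only by probes given apart.

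The liver arrays correlated with each other at 0.705 to 0.748 across ordinary genes and with brain or kidney arrays at 0.006 to 0.334, where arrays of a tissue share their pools and all share the dyes. Brain replicate 3 stood apart from its group: it correlated at 0.311 to 0.382 with kidney arrays and at 0.210 to 0.313 with the other brain arrays, whereas those correlated with each other at 0.698. Differences from brain and kidney are therefore also given without it. The channel 1 tissue label of the liver arrays reads brain, while their titles, both source names and the channel 2 label read liver. Of 27 ordinary markers of neurons and glia, 0 were higher and 4 were lower in the SJL/J pool (14.8%, against 11.9% of all ordinary genes), with a median log2 ratio of -0.03. Without liver replicate 1, 2 or 3 the lower count was 1, 2 or 1, and the counts were 2 higher and 3 lower with line and column medians removed. Nrgn, a listed marker measured only apart, was called higher, but not with line and column medians removed. Of 16 ordinary hepatocyte markers 7 were higher and 1 was lower, with a median of 0.51, while 2 measured only apart were lower. As sets, the ordinary markers of brain were thus not raised, nor those of hepatocytes lowered, in the SJL/J pool of channel 1. A ratio does not give a level, so a tissue that both channels shared could not be read from its markers. In whole tissue fewer cells of a type and less RNA per cell cannot be told apart.

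The liver makes most plasma proteins, burns fatty acids in mitochondria and peroxisomes, and breaks down amino acids and foreign compounds. During the acute phase response, interleukin 6 and interleukin 1 drive hepatocytes, through STAT3, NF-kB and factors of the C/EBP family, to secrete carriers and protease inhibitors into plasma. PPAR alpha, a nuclear receptor activated by fatty acids, drives genes of fatty acid oxidation in the fasting liver.

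Over all 16874 single-symbol probes 4051 passed (24%), of which 1673 (9.91%) were higher and 2378 (14.1%) lower in the SJL/J pool. Probes with no symbol or several symbols had 20.8% higher and 7.65% lower. In the liver 2911 ordinary genes (22.1% of those tested) had a ratio different from 0 at an adjusted p below 0.05 (limma with Benjamini-Hochberg adjustment). Of these, 1349 genes (10.3%) rose and 1562 genes (11.9%) fell in the SJL/J pool, and 2895 of the called genes had the same sign on all 3 arrays. The list counts below stand beside these shares of 10.3% and 11.9%. The ratios of called genes had a median size of 0.50 on the log2 scale. At least 2-fold differences among called genes were fewer, with 159 genes (1.21%) higher and 196 genes (1.49%) lower. The median ordinary gene lay at -0.00, and 90% of ordinary genes lay between -0.59 and 0.51. Every array held the same values once sorted, with a median of 0.01 over all spots. The centre and the extremes of the ratios were therefore not free to differ between arrays. Leaving out liver replicate 1, 2 or 3 left 1639, 1806 or 1637 called genes.

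The 5 promoter windows below belong to genes of plasma proteins and inflammation that rose in the SJL/J pool, and they are shown because these genes moved together. Each covers the 250 bases before the gene's start on the gene's own strand, from RefSeq on GRCm38.p6. In Orm2 (chr4:63362199-63362448, plus strand), Saa2 (chr7:46751583-46751832, plus strand), Lcn2 (chr2:32387740-32387989, minus strand) and Hpx (chr7:105600117-105600366, minus strand) capitals mark the letters TTGCNNAA, a C/EBP-type motif. In Cxcl1 (chr5:90890995-90891244, plus strand) they mark GGGNNTTTCC, an NF-kB-type motif.
Orm2: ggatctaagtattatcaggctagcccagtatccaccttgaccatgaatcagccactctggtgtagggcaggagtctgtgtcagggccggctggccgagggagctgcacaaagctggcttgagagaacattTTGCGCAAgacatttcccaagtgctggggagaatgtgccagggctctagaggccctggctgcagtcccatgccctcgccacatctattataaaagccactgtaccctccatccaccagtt
Saa2: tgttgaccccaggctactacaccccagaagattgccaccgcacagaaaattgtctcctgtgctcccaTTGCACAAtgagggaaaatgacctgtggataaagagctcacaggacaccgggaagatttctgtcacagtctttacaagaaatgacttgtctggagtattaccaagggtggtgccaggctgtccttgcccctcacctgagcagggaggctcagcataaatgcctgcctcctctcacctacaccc
Lcn2: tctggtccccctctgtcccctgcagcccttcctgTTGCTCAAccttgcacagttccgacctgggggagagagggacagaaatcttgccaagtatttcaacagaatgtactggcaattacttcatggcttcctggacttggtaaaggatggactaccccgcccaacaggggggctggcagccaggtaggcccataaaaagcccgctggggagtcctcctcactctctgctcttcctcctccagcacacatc
Hpx: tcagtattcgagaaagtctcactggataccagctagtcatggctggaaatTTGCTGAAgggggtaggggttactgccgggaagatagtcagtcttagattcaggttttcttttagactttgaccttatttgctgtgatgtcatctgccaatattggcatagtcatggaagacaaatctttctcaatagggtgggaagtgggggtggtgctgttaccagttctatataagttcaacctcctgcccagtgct
Cxcl1: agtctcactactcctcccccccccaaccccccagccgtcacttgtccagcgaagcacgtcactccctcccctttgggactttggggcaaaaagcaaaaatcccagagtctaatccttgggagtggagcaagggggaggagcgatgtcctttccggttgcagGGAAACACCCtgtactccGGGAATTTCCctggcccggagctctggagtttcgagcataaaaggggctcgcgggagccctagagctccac

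The C/EBP-type letters end 112 bases before the start in Orm2, 175 bases in Saa2, 208 bases in Lcn2 and 192 bases in Hpx. The NF-kB-type letters occur on each strand once in Cxcl1, ending 79 and 61 bases before the start. Across all 32851 windows of 300 bases, which also hold the first 50 bases of each gene, 10.8% hold TTGCNNAA on either strand. This share counts windows, whereas the shares below count genes, each taken if any of its windows held the letters. The shares of windows and of genes are therefore not like for like. Of the 22 plasma carriers and protease inhibitors that rose, 19 had a window, and 12 of them held it (63.2%). Of the 26 genes of beta-oxidation and peroxisomes that fell, 23 had a window and 6 held it (26.1%). TTCNNNGAA, a STAT-type motif, was in 2 of the 19 and 2 of the 23 genes, against 8.3% of all windows. The letters GGGNNTTTCC were in 1 of the 19 and 0 of the 23 genes, against 1.63% of all windows. The motifs were picked with the sequences in view, they can share letters with one another, and several of these genes are paralogs with alike windows, so the counts describe the windows and nothing else.

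Genes of secreted plasma carriers and inhibitors rose most widely. Of 45 listed genes 36 were ordinary, and of these 22 rose (61.1%, against 10.3% of all ordinary genes), 1 fell and 13 did not pass. Their median ratio was 0.65 in liver, against 0.05 in brain and 0.07 in kidney. The remaining listed genes were measured only apart (3) or not at all (6).

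Lcn2 encodes lipocalin 2, which binds bacterial iron carriers. Its ratios were 3.09, 4.0 and 3.10 on the 3 liver arrays, a mean of 3.40 ± 0.52 (SD, n = 3) or 10.5-fold, with an adjusted p of 1.21e-07 by limma. All arrays lay far above 0, and the second was the highest. Orm2, an orosomucoid that carries drugs and lipids, had ratios of 2.68, 3.21 and 2.88 and a mean of 2.92 ± 0.27 (7.57-fold, adjusted p = 2.43e-08, limma). In the other tissues Orm2 stayed near 0, between -0.12 and 0.06 on the 6 arrays.

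Apcs, the serum amyloid P component, had ratios of 2.58, 2.39 and 2.39, so the arrays differed little and the mean corresponded to 5.47-fold. Saa3 and Saa2, apolipoproteins of the acute phase, followed with ratios of 2.12, 2.26 and 1.57 for Saa3 and of 1.66, 1.84 and 0.92 for Saa2. The third array was the lowest for both. Orm3 had 2.07, 2.12 and 1.06, again lowest on the third array. Saa-ps, a pseudogene of the serum amyloid A cluster, had 3.66, 2.44 and 1.97. The Saa, Orm and Serpina1 genes have near-identical copies, so how a spotted probe divides signal among them is uncertain.

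Alb, serum albumin and the main carrier of plasma, had ratios of 1.39, 1.0 and 0.80, a mean of 1.06 (2.09-fold, adjusted p = 0.000189, limma). Hpx, hemopexin, which binds free haem, had 1.33, 0.63 and 0.80. Serpina1a, an inhibitor of neutrophil elastase, had 1.38, 0.80 and 1.26, and the same probe averaged -1.10 in kidney. Afp, the fetal counterpart of albumin, was the member that fell, with -0.47, -0.52 and -0.39. It was not called (mean -0.04) once the medians of lines and columns of spots were removed. When any single liver array was left out, 19 to 21 members were higher.

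**Figure D1:**
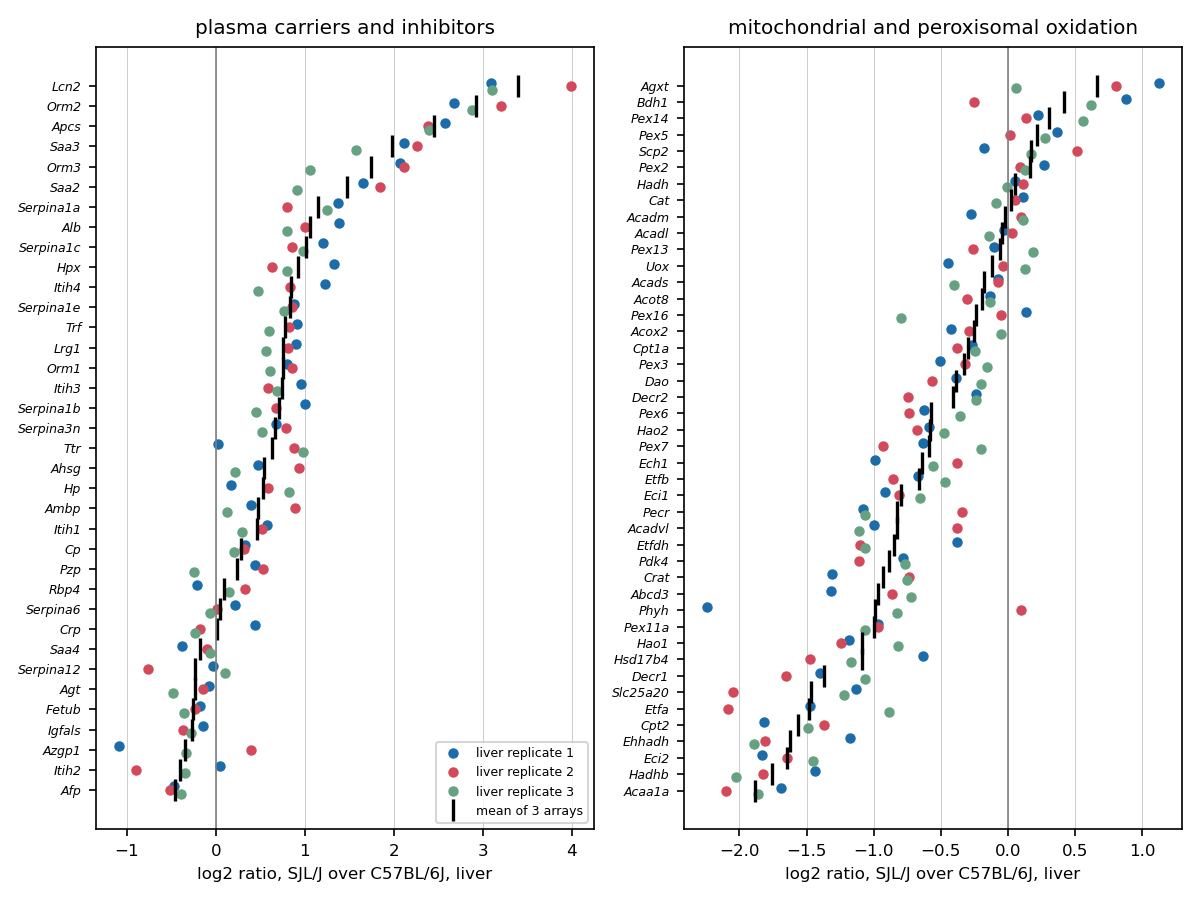
Log2 ratio, SJL/J over C57BL/6J, on each liver array (coloured points) and their mean (black bars) for every ordinary gene of the plasma list (left) and of the mitochondrial and peroxisomal lists (right). On the left 22 genes rose, led by Lcn2 with a mean of 3.40, and on the right 26 genes fell, led by Acaa1a with a mean of -1.88.

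Among 34 ordinary signalling genes of the acute phase 7 were higher (20.6%, against 10.3% of all ordinary genes), 4 were lower (11.8%, against 11.9%) and 23 did not pass. Their median was -0.06, and 0.10 with line and column medians removed. Cxcl1, a chemokine that draws neutrophils, had ratios of 2.04, 2.59 and 2.52 (mean 2.38, 5.22-fold, adjusted p = 2.35e-07, limma). Steap4, a metalloreductase, rose with 1.23, 1.38 and 0.94, and Nfkb2, a subunit of NF-kB, with 2.38, 0.67 and 1.10. The first array was the highest for Nfkb2.

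Cebpa, a transcription factor of differentiated hepatocytes, fell, with -0.50, -0.79 and -1.19. Rela, the transactivating subunit of NF-kB, also fell, with -1.41, -0.49 and -0.51. Il6ra, the receptor of interleukin 6, had 1.55, 0.05 and 1.35, and its call was lost without the first array (0.70, adjusted p = 0.17, limma) or the third (0.80, adjusted p = 0.14). When liver replicate 1, 2 or 3 was left out, 4 members of this list were called higher.

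Coagulation and complement, the other secreted cascades, lay nearer than the plasma list to the shares of all ordinary genes. Among 24 ordinary genes of coagulation and fibrinolysis 5 rose and 5 fell (20.8% each, against 10.3% and 11.9% of all ordinary genes). Those that rose included Fga, Fgb and Fgg, the chains of fibrinogen, with means of 0.70, 0.57 and 0.51, and Plg, plasminogen, with 0.57. Fgg was not called without liver replicate 2 (0.43, adjusted p = 0.0837, limma) or 3 (0.51, adjusted p = 0.0573). Those that fell included Pros1, protein S of the anticoagulant pathway, at -0.97 and Vkorc1, the vitamin K epoxide reductase, at -0.70. Without liver replicate 2 the counts were 3 higher and 3 lower, and without liver replicate 3 the lower count was 3, as it was with line and column medians removed. Among 20 complement genes 2 rose (10%) and 4 fell (20%), against 5 and 2 once those medians were removed and 4 and 4 without brain replicate 3. The lower count was 0, 1 or 2 and the higher count 2, 1 or 2 without liver replicate 1, 2 or 3. C4b, a component of the classical pathway, had 1.19, 1.23 and 0.61, while in kidney it averaged 0.95 and its difference from the other tissues did not pass (adjusted p = 0.262, or 0.309 without brain replicate 3, limma).

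Markers of other cells were read beside these lists, and their part in the results was not tested. Of 11 ordinary neutrophil markers 5 were higher (45.5%, against 10.3% of all ordinary genes) and 0 lower (median 0.26). Apart from Lcn2, which is also made by hepatocytes, they were S100a8 at 1.21, Prtn3, a granule protease, at 1.17, S100a9 at 0.78 and Ltf at 0.37. Ltf was not called when any single liver array was left out. S100a9 averaged 0.75 in brain and 0.63 in kidney too. The 2 further neutrophil markers measured only by probes given apart, Cxcr2 and Mmp9, were both called lower. Across the other processing choices their means ran from -1.49 to -1.06 and from -1.49 to -1.14, and both kept their calls. Of 21 ordinary markers of Kupffer cells and macrophages 5 were higher (23.8%) and 1 lower (4.76%). Their median was 0.18, and none lay beyond 0.62 in size. The higher count was 3 or 2 without liver replicate 1 or 2. Mrc1, measured only apart, was called lower, but not without liver replicate 1 or with line and column medians removed. Of 18 lymphocyte markers 2 were higher and 2 lower (11.1% each, near the 10.3% and 11.9% of all ordinary genes). Each count was 0 or 1 when any single liver array was left out.

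Of 27 ordinary genes induced by interferon 5 were higher (18.5%, against 10.3% of all ordinary genes), 0 lower and 22 did not pass (median 0.05). Irf9, measured only apart, was called lower, but not without liver replicate 1 or 2 or with line and column medians removed. Irgm2 and Igtp, GTPases of resistance to intracellular microbes, rose with ratios of 0.89, 1.05 and 0.98 for Irgm2 and of 0.61, 0.66 and 0.50 for Igtp. Without liver replicate 2 or 3 the higher count was 3. Of 20 genes of antigen presentation by MHC class I and II 6 rose (30%) and 4 fell (20%, against 11.9% of all ordinary genes). H2-Q10, a secreted class I molecule of the liver, had 0.85, 0.84 and 0.71, and H2-Ob, a class II chaperone subunit, had -0.81, -0.80 and -0.34. Without liver replicate 2 the higher count was 3, and without liver replicate 1 the lower count was 2.

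Transcripts of fatty acid oxidation were more often lower than higher in the lists of both compartments. Of 16 ordinary genes of mitochondrial beta-oxidation and ketogenesis 11 fell (68.8%, against 11.9% of all ordinary genes) and 0 rose, with a median of -0.81 in liver, against 0.08 in brain and 0.16 in kidney. Of 28 ordinary genes of peroxisomes 15 fell (53.6%) and 0 rose, with a median of -0.49, against 0.06 in brain and 0.10 in kidney. The mitochondrial count was 6 without liver replicate 1, and the peroxisomal count was 11 to 13 when any single liver array was left out. With a line threshold of 0.3 the mitochondrial count was 7 of the 11 genes then tested. In the main setting 5 of the 16 and 13 of the 28 genes did not pass. With line and column medians removed the mitochondrial list had 8 lower genes and 1 higher, with a median of -0.57. The peroxisomal list then had 13 lower and 0 higher, with a median of -0.37. The peroxisomal list had 2 higher genes without brain replicate 3 and 1 with liver arrays alone.

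In mitochondria Hadhb, the thiolase subunit of the trifunctional protein, had ratios of -1.44, -1.82 and -2.02 (mean -1.76, 3.39-fold lower, adjusted p = 8.06e-06, limma). Cpt2, which reforms acyl-CoA inside the mitochondrion, had -1.82, -1.37 and -1.49. Slc25a20, the carrier that brings acylcarnitines across the inner membrane, had -1.13, -2.05 and -1.22. All arrays were below -1 for these genes. Decr1, needed for unsaturated fatty acids, averaged -1.37 and Etfa, a flavoprotein that passes on the electrons of the oxidation, -1.48. Pdk4, a kinase that shuts pyruvate dehydrogenase in fasting, averaged -0.89, but its call was lost when any single liver array was left out and with line and column medians removed, where the mean was -0.58.

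In peroxisomes Acaa1a, a thiolase, had ratios of -1.69, -2.10 and -1.86, a mean of -1.88 ± 0.20 (SD, n = 3), 3.69-fold lower (adjusted p = 1.27e-06, limma). Its probe averaged 0.96 in kidney, so the tissues lay on opposite sides of 0. Eci2, an isomerase of unsaturated chains, had -1.83, -1.65 and -1.45, and Ehhadh, the bifunctional enzyme, -1.18, -1.81 and -1.89. Hsd17b4, the second bifunctional enzyme, averaged -1.09, Hao1, a glycolate oxidase, -1.09, and Pex11a, which promotes peroxisome division, -1.0. Hao2, another hydroxy acid oxidase, averaged -0.58 in liver and 1.42 in kidney.

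The nuclear receptor gene Ppara fell with ratios of -1.23, -1.71 and -1.34, a mean of -1.43 (2.69-fold lower, adjusted p = 9.77e-06, limma). It lay near 0 in brain (-0.05) and kidney (0.02). Nr1i3, the receptor CAR of drug metabolism, had -1.68, -0.62 and -1.28. Rxrb, a partner of both receptors, rose with 1.65, 1.75 and 0.90. Of 28 nuclear receptors and liver transcription factors 6 rose and 5 fell. The lower count was 2, 3 or 3 without liver replicate 1, 2 or 3, and the higher count was 3 without replicate 1 or 2. With line and column medians removed the lower count was 3.

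Cyp4a14, a fatty acid omega-hydroxylase, was among the lowest genes of the table, with ratios of -2.77, -3.52 and -2.96 (mean -3.08 ± 0.39, 8.47-fold lower, adjusted p = 1.59e-07, limma). It lay between -0.53 and 0.25 on the brain and kidney arrays. Plin2, a coat protein of lipid droplets, had -1.50, -2.24 and -1.52. Cyp4a14 belongs to a family of close paralogs, and which of them its probe binds is uncertain.

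Genes of lipid synthesis and transport changed unevenly. Of 26 ordinary genes of fatty acid synthesis and storage 9 fell (34.6%) and 3 rose (median -0.24). The higher count was 1 without liver replicate 1 or 2, and the median was -0.08 without liver replicate 1 and -0.03 with line and column medians removed. Fads2, the delta-6 desaturase, had -1.88, -1.34 and -1.08, and Fasn, fatty acid synthase, -1.06, -1.06 and -0.57, whereas Pnpla3, a lipid droplet hydrolase, had 1.01, 0.79 and 0.49. Scd1, the delta-9 desaturase, averaged 0.98, and its call was lost without liver replicate 1 or 2.

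Of 25 apolipoproteins and genes of lipoprotein handling 3 rose and 7 fell (median 0.08). Fabp5, a fatty acid binding protein of skin and macrophages, had 1.84, 2.07 and 1.16. Fabp2, its counterpart of the gut, had -1.45, -1.57 and -1.42, and Mttp, which loads triglyceride onto apolipoprotein B, -1.32, -1.80 and -0.87. Apoa1 had 1.94, 1.47 and -0.39, so the third array had the opposite sign, and the mean of 1.0 became 1.70 without it and lost its call without liver replicate 1 (0.54) or 2 (0.77). The lower count of this list was 2 or 4 without liver replicate 1 or 2, and the higher count was 5 without brain replicate 3. Its median was -0.17 without liver replicate 2. Of 18 genes of cholesterol synthesis and uptake 4 rose and 3 fell, with Insig1, which holds back the sterol sensor, at 1.35 and Sc5d, a late enzyme of synthesis, at -1.11. The higher count was 1, 3 or 2 and the lower count 1 without liver replicate 1, 2 or 3, and they were 2 and 1 with line and column medians removed.

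Glucose and energy metabolism also held more lower than higher genes. G6pc, the last enzyme of glucose release from liver, had ratios of -2.73, -2.86 and -2.59, a mean of -2.73 ± 0.13 (SD, n = 3) or 6.62-fold lower (adjusted p = 3.27e-07, limma). The probe also lay low in brain, between -1.88 and -1.03, and slightly above 0 in kidney. Of 17 ordinary genes of gluconeogenesis and glycogen 4 fell and 1 rose, with Pygl, the liver glycogen phosphorylase, at -0.96. When any single liver array was left out 2 fell, and without liver replicate 2 or 3 0 rose.

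Of 19 genes of glycolysis and pyruvate oxidation 8 fell and 1 rose (median -0.30). Ldha, lactate dehydrogenase A, fell by 0.71 on the log2 scale. The lower count was 4, 3 or 2 without liver replicate 1, 2 or 3, and 4 with line and column medians removed. Of 16 genes of the citric acid cycle 9 fell and 1 rose (median -0.51). Sdhb and Sdhd, subunits of succinate dehydrogenase, fell to means of -0.76 and -0.69, while Idh2, the mitochondrial isocitrate dehydrogenase, rose to 0.73. The lower count was 5 without liver replicate 1 and 3 with line and column medians removed.

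**Figure D2:**
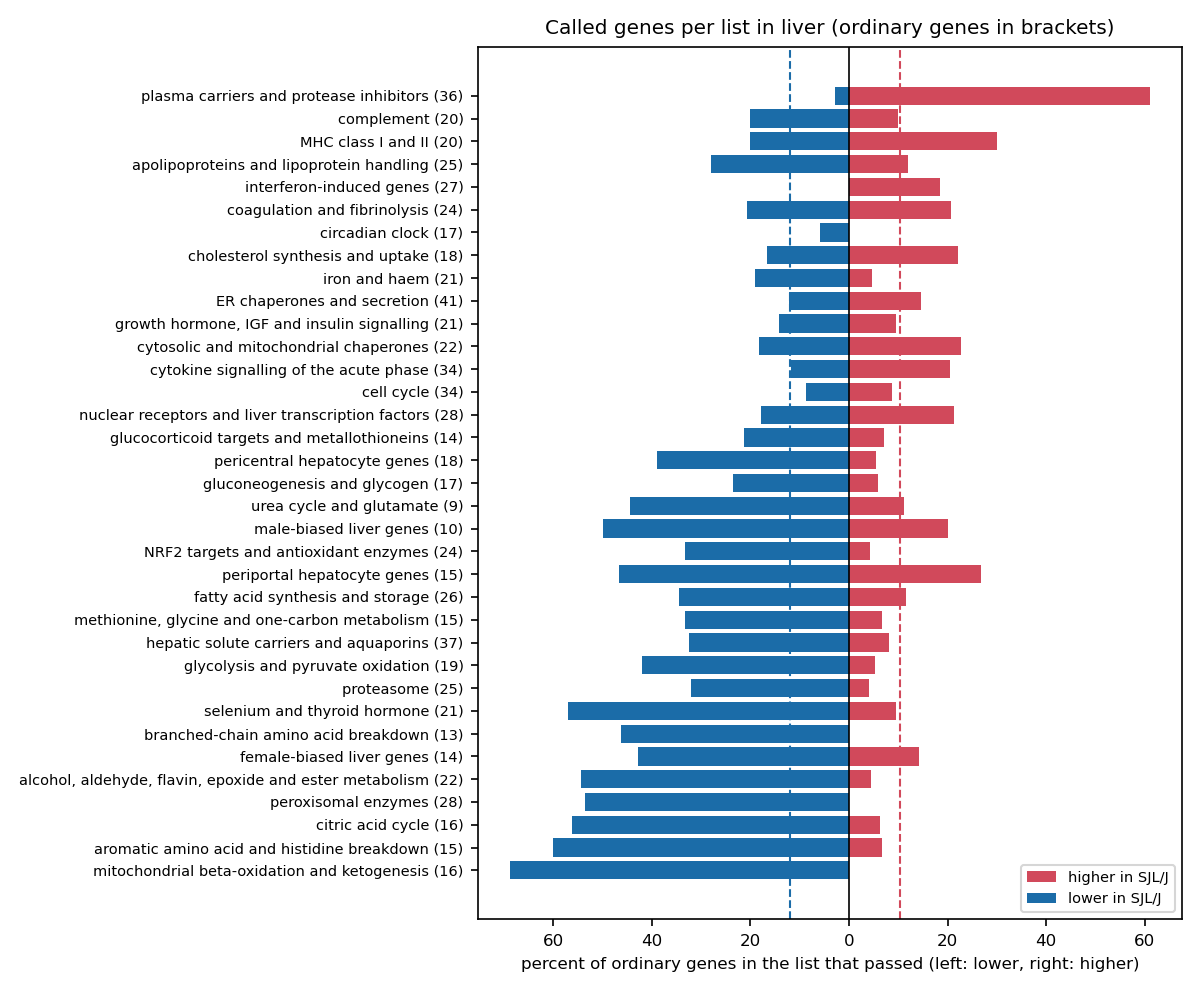
Percent of the ordinary genes of each gene list that were called higher (red, to the right) or lower (blue, to the left) in the SJL/J liver pool, ordered by the median ratio. Dashed lines mark the shares of all ordinary genes, 10.3% higher and 11.9% lower, and the plasma list reached 61.1% higher while the mitochondrial oxidation list reached 68.8% lower.

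Of 15 ordinary genes of aromatic amino acid and histidine breakdown 9 fell (60%, median -0.56) and 1 rose. Tdo2, which opens the ring of tryptophan, had ratios of -1.98, -1.76 and -1.33 (mean -1.69, 3.23-fold lower, adjusted p = 3.06e-06, limma). Amdhd1, of histidine breakdown, had -1.84, -1.63 and -1.38, although it also averaged -0.65 in brain and -0.81 in kidney. Aadat, an aminotransferase of kynurenine, averaged -1.37 and Ddc, the aromatic amino acid decarboxylase, -1.32. Of the 9 that fell, all 9 were also called under each of 12 other processing choices, several of which leave a gene's liver mean unchanged.

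Oat, ornithine aminotransferase, had -2.59, -2.51 and -2.63, a mean of -2.58 ± 0.06 (5.97-fold lower, adjusted p = 4.63e-07, limma). The 3 arrays differed little. Glud1, glutamate dehydrogenase, had -1.51, -1.67 and -1.58. Cps1, the first enzyme of the urea cycle, rose with 0.91, 0.52 and 0.66. In all, 4 of 9 ordinary genes of the urea cycle and glutamate fell (2 without liver replicate 2) and 1 rose, and 6 further listed genes were measured only by probes given apart.

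Of 13 genes of branched-chain amino acid breakdown 6 fell and 0 rose, with Pccb, a subunit of propionyl-CoA carboxylase, at -1.08. That count was 3 without liver replicate 3 and with line and column medians removed. Of 15 genes of methionine, glycine and one-carbon metabolism 5 fell and 1 rose. Its lower count was 1, 3 or 3 without liver replicate 1, 2 or 3, and 3 with line and column medians removed.

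Of 22 ordinary genes of enzymes that oxidise alcohols, aldehydes and foreign compounds 12 fell (54.5%, median -0.40) and 1 rose. Aldh3a2, a fatty aldehyde dehydrogenase, had ratios of -2.37, -1.50 and -2.34 (mean -2.07, 4.20-fold lower, adjusted p = 6.81e-06, limma). Aox3, an aldehyde oxidase, had -1.57, -2.19 and -1.65, and Aldh2, the mitochondrial acetaldehyde dehydrogenase, -1.55, -1.33 and -1.35. Ephx1, the microsomal epoxide hydrolase, had -2.23, -2.54 and -0.41, and Adh1, an alcohol dehydrogenase, had -2.16, -0.41 and -1.66. All 3 arrays were negative for both, but the third was close to 0 for Ephx1 and the second for Adh1. Without liver replicate 3 the lower count was 7.

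Genes of selenium and thyroid hormone fell in 12 of 21 (57.1%, median -0.35) and rose in 2. Dio1, the deiodinase that activates thyroxine, had -2.26, -3.33 and -3.72, a mean of -3.11 ± 0.75 (8.60-fold lower, adjusted p = 1.79e-06, limma). Selenbp1, a selenium binding protein that oxidises methanethiol, had -3.25, -2.76 and -2.91, and its close paralog Selenbp2 had -2.96, -1.87 and -3.04. Trnau1ap, which associates with the selenocysteine tRNA, averaged 1.10 in liver and 1.64 in kidney. Without liver replicate 1, 2 or 3 the lower count was 7, 6 or 5. With line and column medians removed it was 9, and the median was -0.15.

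Of 24 NRF2 targets and antioxidant enzymes 8 fell (33.3%, against 11.9% of all ordinary genes) and 1 rose (4.17%, against 10.3%). Txn1, thioredoxin, had -1.77, -2.04 and -1.26, and Prdx3, a mitochondrial peroxiredoxin, -1.87, -0.96 and -0.67. Without liver replicate 2 the lower count was 5. Of 25 proteasome subunits 8 fell (32%) and 1 rose (4%). Psmb7, a catalytic subunit, had -0.95, -1.09 and -0.88. The lower count was 4 or 3 without liver replicate 1 or 2, 5 with line and column medians removed, and 13 without brain replicate 3, which enters the pooled variance.

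Heat shock proteins gave large ratios in few genes. Hspa8, the constitutive cytosolic HSP70, had 3.78, 2.52 and 2.65, a mean of 2.98 ± 0.70 (7.91-fold, adjusted p = 8.06e-06, limma). A second Hspa8 probe, which lies at a multiple of 8, went the other way with -0.50, -0.06 and -1.14 (mean -0.57, adjusted p = 0.0322 over all probes, limma), so the probes of this gene disagree. The first Hspa8 probe, number 11681, follows number 11680 in the same line, the probe of Dmrtb1, with 2.63, 2.66 and 3.16. Whether that bears on the Hspa8 ratio was not tested. Dnajb1, a co-chaperone of Hspa8, had 2.33, 3.30 and 2.75, a mean of 2.79 ± 0.49 (6.93-fold, adjusted p = 2.35e-07, limma). On the kidney arrays Hspa8 lay between -0.89 and -0.68, while Dnajb1 lay between 0.20 and 0.31.

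Other chaperones had smaller ratios. Hspa4, an HSP110, averaged -0.80 and Hspe1, the mitochondrial co-chaperonin, -0.68. In all, 5 of 22 cytosolic and mitochondrial chaperones rose and 4 fell, and the higher count was 3 without liver replicate 1 or 3. Of 41 genes of ER chaperones and secretion 6 rose and 5 fell (14.6% and 12.2%, near the 10.3% and 11.9% of all ordinary genes). Without liver replicate 1 the counts were 2 higher and 3 lower, without replicate 2 the higher count was 3, without replicate 3 the lower count was 3, and without brain replicate 3 it was 8.

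Genes with a known sex bias in liver were compared between male pools here. Of 14 female-biased liver genes 6 fell (42.9%) and 2 rose (14.3%). Of 10 male-biased genes 5 fell (50%) and 2 rose (20%), against 11.9% and 10.3% of all ordinary genes. Besides Cyp4a14, the female-biased Cyp3a16 had -2.09, -1.68 and -1.67 and Cyp3a44 had -2.51, -1.43 and -1.30. The male-biased Mup3, a major urinary protein, rose with 1.58, 1.12 and 1.57, where its 2 probes averaged 1.94 and 0.91. The Cyp3a and Mup families hold near-identical genes, so these values are uncertain as to the copy. Without liver replicate 1 or 2, and with line and column medians removed, the male-biased lower count was 3. The female-biased higher count was 1 without liver replicate 1 or 2.

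By place in the liver lobule, 7 of 18 genes of pericentral hepatocytes fell (38.9%) and 1 rose (5.56%). Of 15 periportal genes 7 fell (46.7%) and 4 rose (26.7%), against 11.9% and 10.3% of all ordinary genes. When any single liver array was left out, 5 or 6 pericentral genes fell and 0 or 1 rose. The periportal counts were then 6 or 7 lower and 3 or 4 higher. Among pericentral genes Lgr5, a Wnt receptor partner, averaged -1.18, Avpr1a, a vasopressin receptor, -0.96 and Cyp1a2, -0.79. Among periportal genes Etnppl, a phospholyase, averaged -0.88, Cdh1, E-cadherin, -0.71 and Ctsc, cathepsin C, 0.53.

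Of 37 hepatic solute carriers and aquaporins 12 fell (32.4%, against 11.9% of all ordinary genes) and 3 rose, with Slc47a1, an exporter of organic cations, at -0.81 and Aqp1, a water channel, at 0.66. Between 8 and 10 members were lower and 1 or 2 higher when a single liver array was left out or line and column medians were removed. Of 21 genes of growth hormone, IGF and insulin signalling 3 fell (14.3%) and 2 rose (9.52%), with Igfbp2 at -1.17 and Igf1 at -0.87. Igf1 also averaged -0.54 in brain and -0.84 in kidney. Of 14 glucocorticoid targets and metallothioneins 3 fell (21.4%) and 1 rose (7.14%). Of 21 genes of iron and haem 4 fell (19%) and 1 rose (4.76%). The iron list had 2 lower genes without liver replicate 1 and 4 higher genes without brain replicate 3. Hmox1, haem oxygenase 1, averaged 0.52 and Tfrc, the transferrin receptor, -0.97. A second Tfrc probe, in a shifted line with a median of 2.40, averaged 2.46 (adjusted p = 1.64e-06, limma).

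Of 17 genes of the circadian clock, Rora was the member that fell, at -0.77, and 0 rose. Of 34 cell cycle genes 3 rose and 3 fell (8.82% each, below the 10.3% and 11.9% of all ordinary genes). Among them Mcm5, of the replicative helicase, stood at 1.15. Without liver replicate 2, or with line and column medians removed, 0 were lower, and without brain replicate 3 the count was 7.

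Markers of the liver's cell types were not uniformly shifted. Of 16 ordinary hepatocyte markers 7 rose (43.8%, against 10.3% of all ordinary genes) and 1 fell (median 0.51), and several of these also stand in the plasma list. When any single liver array was left out, 5 to 8 rose and 1 or 2 fell. Cyp2c29 and Slc10a1, hepatocyte markers measured only by probes given apart, were both called lower. Where measured, they kept their calls under the other processing choices, with means of -1.76 to -1.29 and of -0.84 to -0.46. Of 13 markers of liver endothelium 0 rose and 2 fell (15.4%, against 11.9% of all ordinary genes). Of 8 cholangiocyte markers 0 rose and 2 fell (25%). Of 17 markers of stellate cells and fibroblasts 2 rose and 2 fell (11.8% each). Among them Col3a1, a fibrillar collagen, had 2.62, 2.62 and 2.53, a mean of 2.59 (6.02-fold, adjusted p = 1.07e-07, limma), while Col1a1, its usual companion, had -0.70, -0.12 and -0.62 and Dcn, decorin, fell with -0.83, -0.63 and -0.47. The call of Col1a1 was lost without liver replicate 1 or 3 and with line and column medians removed. Leaving out a single liver array moved the endothelial, cholangiocyte and stellate counts by at most 1.

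Of 6 erythroid markers 3 rose (50%) and 1 fell (16.7%). Alas2, the erythroid enzyme that starts haem synthesis, had -1.63, -2.32 and -1.93, whereas Hba-a1, alpha globin, had 1.19, 0.81 and 0.50. Of 9 adipocyte markers 1 rose (11.1%) and 2 fell (22.2%). Of 18 kidney markers 1 rose (5.56%) and 2 fell (11.1%), against 10.3% and 11.9% of all ordinary genes. Without liver replicate 1 or 2 the erythroid higher count was 1 and the adipocyte higher count 0, and when any single liver array was left out the kidney lower count was 0.

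Genes with the largest ratios were not all members of a list. Scel, which encodes sciellin of the cornified envelope, was the highest, with 4.22, 4.55 and 5.09, a mean of 4.62 ± 0.44 (24.6-fold, adjusted p = 0.00176, limma). Scel had ratios of 3.66, 3.58 and -1.59 in brain and of -2.21, -0.25 and -1.69 in kidney, so brain replicate 3 sided with kidney. 1600010M07Rik had 2.86, 3.03 and 4.06 in liver, 3.09, 2.19 and -1.39 in brain, and -2.23, -0.07 and -1.51 in kidney, so the same brain array was on the side of kidney. Both passed in liver under each of 12 other processing choices, several of which leave a gene's liver mean unchanged.

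Gp2, a membrane glycoprotein of pancreatic secretory granules, was second, with 3.58, 4.06 and 3.73 (mean 3.79 ± 0.25, 13.8-fold, adjusted p = 2.55e-08, limma). In brain it lay between -1.46 and -0.64. Of 21 ordinary markers of pancreatic acinar cells 6 were higher (28.6%, against 10.3% of all ordinary genes) and 0 lower. Besides Gp2 the other 5 reached means of only 0.31 to 0.57, and their part in the Gp2 result was not tested. Without liver replicate 1 or 2 the higher count was 3. The 4 markers measured only by probes given apart, Reg2, Sycn, Cela2a and Pnliprp2, were all called lower. Sycn kept its call under every other choice in which it was measured (-0.85 to -0.62). The calls of Reg2 (-1.97 to -0.93), Cela2a and Pnliprp2 were each lost under at least 1 choice.

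Satl1, a spermidine acetyltransferase-like gene, had 2.97, 3.40 and 2.84 in liver. It was also high in brain, with 3.52, 3.47 and 2.79, and in kidney, with 1.92, 2.01 and 1.94, so all 9 arrays lay above 1.9. Gadl1, a decarboxylase of acidic amino acids, had 2.62, 2.34 and 3.96, Rny1, a small cytoplasmic RNA, 2.59, 2.52 and 2.97, and Stx6, a syntaxin of endosomes, 2.90, 2.48 and 2.60.

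At the low end 1700110I01Rik had -3.72, -3.25 and -3.52 (mean -3.50 ± 0.23, 11.3-fold lower, adjusted p = 2.35e-07, limma), and it was also negative on the 3 kidney arrays, from -2.08 to -0.90. 2310043L19Rik had -2.98, -3.04 and -3.17, and Krtcap3, a keratinocyte-associated protein, -3.09, -2.79 and -2.86. Hsd3b1, a steroid dehydrogenase, had -2.76, -2.59 and -2.54, and Tmem254a, a membrane protein, -2.94, -2.47 and -2.32. 2200002J24Rik followed with a mean of -2.58. The 12 highest and the 12 lowest genes were taken from called genes with 1 sign on all 3 liver arrays. That agreement was set by the choice of genes. Each of them also passed under all 12 other choices. Several of these, such as robust variances or the replicate block, leave a gene's liver mean unchanged, so the choices are not independent checks.

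**Figure D3:**
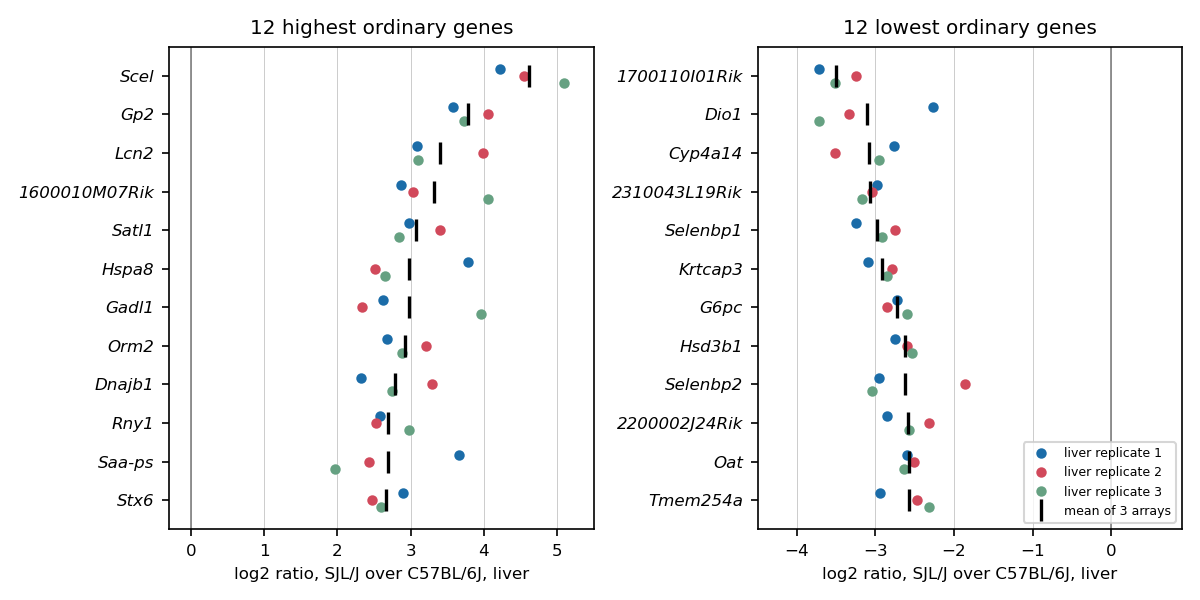
Log2 ratio, SJL/J over C57BL/6J, on each liver array (coloured points) and the mean of 3 arrays (black bars) for the 12 highest and the 12 lowest called ordinary genes. Genes were taken only if all 3 arrays had the same sign. Means ran from 2.66 to 4.62 on the left and from -3.50 to -2.58 on the right.

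Nnt, the nicotinamide nucleotide transhydrogenase gene that carries a deletion in C57BL/6J, had liver ratios of 0.72, 0.51 and 0.20 (mean 0.48, adjusted p = 0.0784, limma). All 3 arrays were above 0, but the gene did not pass.

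The liver ratios were then set against those of the other tissues by the difference between the liver mean and the mean of brain and kidney. That difference passed for 798 ordinary genes upward (6.07%) and 1366 downward (10.4%), or for 924 and 1590 without brain replicate 3. Of the 2911 genes called in liver, 1384 (47.5%) also passed this test in the same direction, or 1425 without brain replicate 3. In the plasma list 20 of 36 genes passed upward and 3 downward, and in the mitochondrial and peroxisomal lists 9 of 16 and 13 of 28 passed downward and 0 upward. The aromatic amino acid list had 9 of 15 downward and 1 upward. Without brain replicate 3 the plasma list had 21 upward and 3 downward, the aromatic amino acid list 10 downward and 1 upward, and the mitochondrial and peroxisomal lists again 9 and 13 downward and 0 upward.

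The largest upward differences belonged to Scel (4.37, adjusted p = 0.0113, limma), Gp2 (4.30, adjusted p = 1.49e-07) and Gadl1 (3.46, adjusted p = 0.000461). Without brain replicate 3 the differences were 3.50 for Scel, 4.42 for Gp2 and 3.21 for Gadl1. The largest downward differences belonged to Cyp4a14 (-3.08, adjusted p = 1.75e-06, limma), Selenbp1 (-2.93, adjusted p = 3.19e-07) and Dio1 (-2.80, adjusted p = 3.78e-05), and were -3.0, -2.93 and -2.84 in the same order without brain replicate 3. Hdac1, a histone deacetylase, had -2.47, -2.36 and -2.51 in liver and lay between 0.02 and 0.28 on the 6 other arrays, a difference of -2.63 (adjusted p = 1.27e-07, limma), or -2.62 without brain replicate 3.

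Satl1 showed the other pattern, since its difference of 0.46 did not pass (adjusted p = 0.0978, limma), nor did it without brain replicate 3 (0.34, adjusted p = 0.0964).

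**Figure D4:**
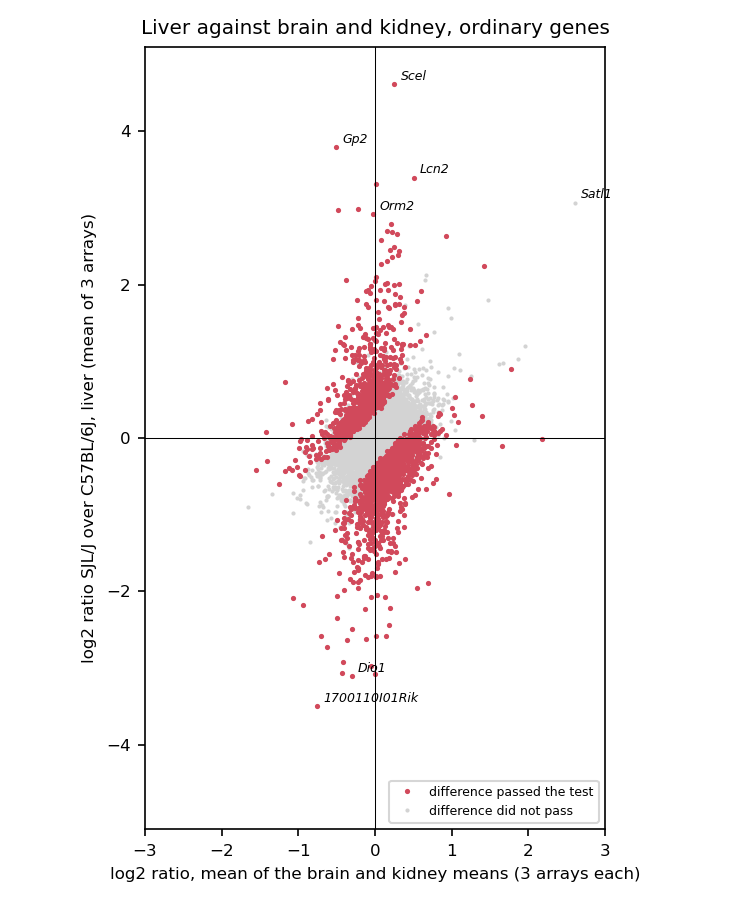
Mean log2 ratio in liver (vertical axis, 3 arrays) against the mean of the brain and kidney means (horizontal axis) for 13157 ordinary genes, with genes whose difference passed the test in red. Scel and Gp2 lie high near the vertical axis, Dio1 and 1700110I01Rik low, and Satl1 lies to the upper right because it was high in all tissues. The horizontal place of Scel averages unlike arrays, since brain replicate 3 and the kidney arrays were negative and the other brain arrays were high.

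Probes at multiples of 8 were shifted downward as a class. Of the 2182 members there, 122 were called higher (5.59%) and 707 lower (32.4%), with a median of -0.22, against a median of -0.00 for ordinary probes, where 10.2% were higher and 11.2% lower. The highest among them outside shifted lines were 1700086P04Rik (3.13, 3.15 and 3.05) and Dmrtb1 (2.63, 2.66 and 3.16), which stayed at 3.13 and 2.81 after line and column medians were removed. The lowest were 2310030A07Rik at -2.68, Ccdc151 at -2.48, 4930556M19Rik at -2.36 and 2810030D12Rik at -2.18.

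Of 960 lines of 24 consecutive probe numbers 48 had a median at least 0.5 away from that of the table, 44 above and 4 below. The nearest line inside this limit lay 0.52 away and the nearest outside 0.49. Of the 331 members in these lines 97 were called higher (29.3%) and 58 lower (17.5%). Mt1, a metallothionein, read 4.80, 3.85 and 4.0 in a line whose median was 2.40, and its mean of 4.22 became 1.87 after line and column medians were removed. In the same line Manbal, also at a multiple of 8, had a mean of 3.55 that became 1.35.

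Abl1 (3.28), 1700066C05Rik (3.60) and Serpina1f (3.59) shared a line with a median of 2.43, and after removal they stood at 0.94, 1.09 and 1.08. The other Abl1 probes averaged 0.33 (ordinary) and -1.07 (at a multiple of 8). On the low side Cyp4a10, a relative of Cyp4a14, read -3.52, -3.91 and -2.41 in a line with a median of -0.52, and its mean of -3.28 became -2.77. Hydin (-2.43), 4930434B07Rik (-2.15) and Zfp518a (-1.61) became -1.57, -1.29 and -1.02. All these probes passed before and after the removal. Saa1, named after its values were seen and lying in the line of Abl1, averaged 1.22 and was at -1.26 and not called after removal.

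**Figure D5:**
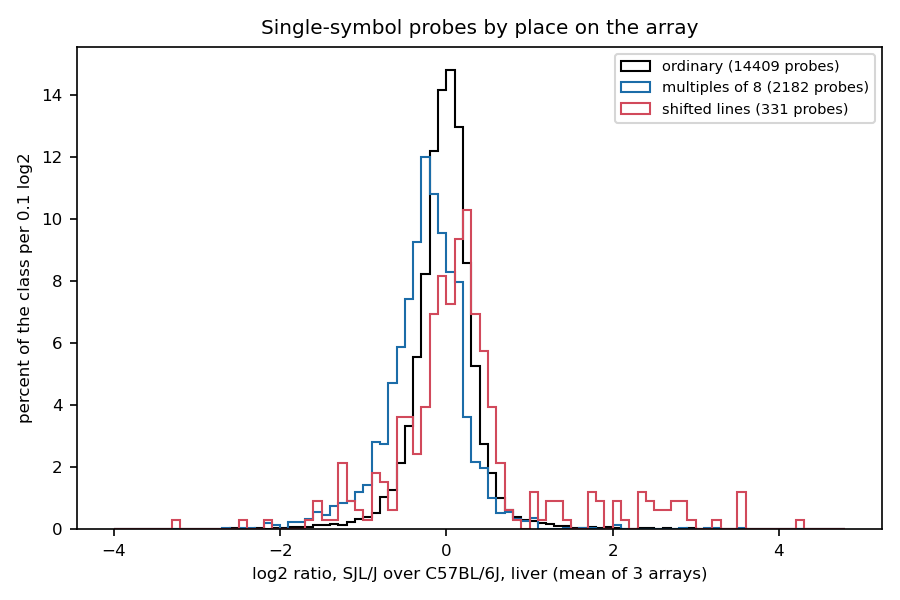
Distribution of the mean liver log2 ratio (horizontal axis, bins of 0.1) as percent of each class (vertical axis) for ordinary probes, probes at multiples of 8 and probes in shifted lines. The curve of multiples of 8 is centred at -0.22, left of the ordinary probes, and the curve of shifted lines has a tail of high ratios.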

How the data were processed

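The deposited table held 1 log2 ratio per spot and array, made by the authors with R 2.0.0 and limma per the submitters' processing notes. Once sorted, all 9 columns held the same values, which means that the arrays had been given a common distribution. How background was treated is not given in the sources used here. Without spot intensities no filter on dim spots was applied, and the precision is limited by the number of arrays.

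Gene names came from the platform annotation, where 16196 probes matched the gene table of GRCm38.p6. Using limma 3.58.1 (R 4.3.3, lmFit and eBayes), a mean for each tissue was estimated from 9 arrays together, with 6 residual degrees of freedom. Tests were two-sided, with Benjamini-Hochberg adjustment over all 23040 spots or over all genes and a threshold of 0.05. Probe counts were then taken over single-symbol probes. The steps were tested on simulated data. Same-numbered arrays of different tissues were not paired: their deviations correlated at -0.07 to 0.02, and 0 of 9 pairs exceeded 0.1.

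The rule for naming took the 12 highest and 12 lowest called genes that had the same sign on all liver arrays. It also took up to 6 called genes of each list by size plus up to 4 of the rarer direction. Further, it took the 8 highest and 8 lowest differences from brain and kidney, the 4 highest and lowest probes apart on each side, and Nnt. Alb, Hpx, Serpina1a and the marker genes were named outside it, after their values were seen. Members and lists were chosen with earlier results of these data known. Alternatives left out arrays, added a replicate block, fitted liver arrays alone, removed line and column medians, changed the line threshold, left out multiples of 8, used robust variances or centred the arrays.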

Additional observations from a re-analysis of the deposited data

Results flagged for a closer look

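For 16 genes the strain ratio in liver differed from the mean ratio of brain and kidney by limma's test of the difference, and these were the 8 largest differences in each direction. Upward, the differences in log2 ratio were 4.37 for Scel, 4.30 for Gp2, 3.46 for Gadl1, 3.30 for 1600010M07Rik, 3.21 for Hspa8, 2.94 for Orm2, 2.89 for Lcn2 and 2.58 for Dnajb1. Downward, they were -3.08 for Cyp4a14, -2.93 for Selenbp1, -2.80 for Dio1, -2.74 for 1700110I01Rik, -2.72 for 2200002J24Rik, -2.63 for Hdac1, -2.63 for 2310043L19Rik and -2.59 for Oat. Without brain replicate 3 the difference was 3.50 for Scel and 2.63 for 1600010M07Rik, and all 16 still passed. The difference of 1600010M07Rik was not called without liver replicate 2 (3.45, adjusted p = 0.0544, limma) or 3 (2.93, adjusted p = 0.0786).

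Among the 6166 probes that carried no symbol or several symbols, 1282 were higher (20.8%) and 472 lower (7.65%) in the SJL/J liver pool, against 9.91% and 14.1% of the single-symbol probes. These probes stand in no comparison of the report.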

How the results depend on the processing

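Of 415 genes followed through the 12 alternatives, the mean of 1 changed sign, that of Saa1 in a shifted line. Of 47 list medians 10 changed sign under at least 1 alternative, all at most 0.154 in size in the main setting, among them apolipoproteins (-0.17 without liver replicate 2), acute phase signalling (0.10 with line and column medians removed) and gluconeogenesis (0.01 with those medians removed). The complement calls were 5 higher and 2 lower with those medians removed, against 2 and 4 in the main setting, and the cause was not tested. The genes called in liver numbered 2911, and 1637 to 1806 when 1 liver array was left out. The probes called numbered 4051, and 2239 to 2523 without 1 liver array. The genes whose difference from brain and kidney passed numbered 2164, and 1169 to 1291 without 1 liver array. Fewer arrays enter these fits. With the replicate number as a block the counts were 2705 genes, 3654 probes and 1877 differences, and the shared numbers do not pair the arrays. Without brain replicate 3 they were 3745, 4976 and 2514. With line and column medians removed they were 2422, 3211 and 1782, and 1974 of the 2911 genes kept their call and direction. Centring the arrays on ordinary probes left 2124 differences, of which 45.8% were upward, against 36.9% in the main setting. Of 47 list medians, 23 moved by more than the spread between arrays when line and column medians were removed. No level, detection filter or spread between mice can be had from these ratios.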
